A study of Drosophila melanogaster with 12 samples.

Results

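The genes that encode the proteins of the cytoplasmic ribosome were followed through RNA-seq and ChIP-seq libraries of S2 cells, an established Drosophila melanogaster line with hemocyte-like features. Members were chosen by symbol, as genes whose FlyBase name starts with RpL or RpS and a number, together with RpLP0, RpLP1, RpLP2 and sta. The mitochondrial ribosomal protein genes, named mRp, were left out. The rule took 92 genes, of which 85 were among the 12986 genes of the RNA-seq table and 87 among the 13924 genes of the ChIP-seq table. A further 5 of the 92, RpL19, RpL31, RpL27A, RpS12 and RpS10b, matched no identifier in either table and were not analysed here. Of the 85 genes with RNA counts, 49 encode proteins of the large (60S) subunit and 36 encode proteins of the small (40S) subunit, and 22 belong to families with more than 1 gene copy.

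RNA was compared in 4 groups of 2 biological replicates. In recBRM-V5 cells the endogenous BRM was depleted with dsRNA and a V5-tagged wild-type BRM was expressed from a stably integrated plasmid. In recBRM-K804R-V5 cells the same was done with a catalytically inactive BRM. BRM-depleted cells received the dsRNA against BRM and Control cells received dsRNA against GFP. The labels give both an empty plasmid, whereas the methods call them control S2 cells and name no plasmid. Harvest was at 48 h of dsRNA treatment, with copper sulfate for the last 24 h in the recombinant lines, whose BRM genes are driven by the metallothionein promoter. Copper is not stated for the cells without recombinant BRM. The copper-induced metallothionein gene MtnA had 6763 and 10171 CPM (counts scaled to a common library size with TMM factors) in recBRM-V5 cells, 7429 and 5239 in recBRM-K804R-V5 cells, 214.3 and 195.4 in BRM-depleted cells, and 188.4 and 223.5 in Control cells. Cell line, copper and recombinant protein therefore cannot be told apart. For BRM binding, 2 replicates of a BRM immunoprecipitate (IP) and of its Input were available.

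Each ribosome is built from a copy of nearly every one of these proteins and several ribosomal RNAs, so growing cells transcribe the genes at high and coordinated levels. In flies their promoters often start transcription within a run of pyrimidines, known as the TCT initiator, in place of the usual initiator. Loss of a copy of many of these genes gives the Minute phenotype of slow growth. BRM is the ATPase of the SWI/SNF chromatin remodelling complexes, which move or remove nucleosomes.

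The libraries held 6600562 to 10287294 gene counts. The brm gene had 16635 and 24893 CPM in recBRM-V5 cells, 2118 and 2005 in recBRM-K804R-V5 cells, 176.5 and 174.6 in BRM-depleted cells, and 433.3 and 445.7 in Control cells. The order of the groups fits their labels, and the recombinant lines differed in how much brm RNA they held. All 10 hemocyte markers were present, with 8656 to 15708 CPM in sum, and all 5 fat body markers were below 1 CPM in every library. The files give no cell numbers, so that fewer cells of a type and less RNA per cell cannot be told apart in these bulk samples.

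The start of transcription was inspected first, since choosing the members by name made no use of it. A start motif on the sense strand, with its first C within 5 bases of the annotated start, was present in 41 of 92 members, or 44.6%, against 4.70% of 13945 protein-coding genes and 4.55% of the 7530 other tested genes. Most members thus had none of the 4 words at the 5′-most annotated start, the only start searched per gene. Further starts of the same gene may carry a motif that was not counted. The motif was CTTTT in 12 members, CTTTC in 11 members, CTCTT in 10 members and CTTCC in 8 members. Among the 77 members with at least 100 CPM in Control cells the share was 50.65%. The sequences run 5′ to 3′ over 30 bases, from 14 bases before the annotated start to 16 bases from it, with the start motif in capitals. They are from the RefSeq Release 6 genome with starts from the Ensembl annotation. The following abundant members carried the motif, and RpL8, RpS3 and RpS6 return below as genes that varied strongly between libraries.
RpL8 (chr3L:2587442-2587471, plus strand): ggatgtcttcctCTTTTcttttcttttcgc
RpS3 (chr3R:23358798-23358827, plus strand): cgcgggcacactggcCTCTTtcttttctgc
RpL14 (chr3L:8600992-8601021, plus strand): tgtcaaaaaagttCTTTCcttctctttctt
RpL40 (chr2L:4227685-4227714, plus strand): cggcggcggccacactCTCTTttccctttt
RpS6 (chrX:7901316-7901345, minus strand): acttcctcctatcggtCTTTTtcaaccctg
RpS3A (chr4:67192-67221, minus strand): tcgtcaacgtgattcgacCTTTTccggttt

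Absence of the motif did not mark low genes alone. RpL5, the member with the most counts and with 3 annotated starts, lacked it at the 5′-most start. The rare copies RpS19b and RpS10a lacked it there too, while the rare copy RpS5b carried it. These starts are shown because the RNA results below turn on the same genes.
RpL5 (chr2L:22536869-22536898, minus strand): actttaagaaattgcgttgttgaatgttaa
RpS19b (chr3R:23933515-23933544, minus strand): cttgccaatcgtccattttgactaaagtca
RpS10a (chr3R:27652746-27652775, plus strand): aagtttcggtaaatactaatttaagctggc
RpS5b (chr3R:14901548-14901577, minus strand): gctccttttaccgtttCTTTTtcatcctct

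Within 300 bases around the start and on either strand, TATCGATA, the core of the DREF element, was found in 30.4% of members, against 9.36% of all genes and 14.7% of the 7530 other tested genes. The other words searched were GGTCACAC, which is the core of a core-promoter element of housekeeping genes (16.3% of members, 7.70% of all genes and 12.7% of other tested genes), the E-box CACGTG (7.61%, 4.20% and 4.45%) and the TATA word TATAAA (48.9%, 45.8% and 45.8%). None of these words contains another, and start motifs that overlap within one pyrimidine run were counted once per gene. A match describes the sequence and does not show that a factor binds it.

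The members were among the most abundant transcripts of S2 cells. Scaled to the length of their exons, the 85 genes had a median level of 1169 CPM per kb in Control cells, against 17.9 CPM per kb for the 7699 other tested genes with a known length. They supplied 61 of the 100 genes with the highest level per kb, and 77 of them reached 100 CPM. RpL41, which encodes the smallest ribosomal protein, stood first with 6412 ± 2163 CPM per kb (SD, n = 2 here and for the levels below). It was followed by RpL21 with 4521 ± 1113, RpL39 with 4067 ± 2143 and RpL5 with 3450 ± 814 CPM per kb. With SDs of this size, RpL41, RpL21, RpL39 and RpL5 cannot be placed in a firm order.

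Proteins with a special role in the ribosome stood at different levels. RpL40 and RpS27A, which are made as fusions with ubiquitin, had 2703 ± 113 and 3053 ± 290 CPM per kb in Control cells. The stalk proteins, which recruit the elongation factors, had 1567 ± 250 (RpLP1), 1115 ± 152 (RpLP2) and 835 ± 319 CPM per kb (RpLP0). The small-subunit protein SA, encoded by sta, had 813 ± 313 CPM per kb, and RpS6, the substrate of S6 kinase, had 799 ± 548 CPM per kb. RpL23A, which binds new chains at the exit of the tunnel, had 489 ± 342 CPM per kb. The levels of RpLP0, sta and RpS6 lay within each other's spread. By exon length the lowest genes without a paralog were RpL17, RpS21 and RpS26, at 313 ± 185, 316 ± 155 and 345 ± 185 CPM per kb. Their spread does not separate them. Per kb of coding sequence they had 627, 1067 and 1879 CPM, and RpL35A was lowest of these genes with 490 CPM.

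Gene copies within a family differed by far more than the spread between replicates. RpS19a had 602 ± 127 CPM per kb in Control cells and RpS5a had 1022 ± 348, whereas RpS19b had 7.30 and RpS5b had 2.79 CPM per kb. RpS10a had 1.53, RpL37-2 had 0.289 and RpL22-like had 0.135 CPM per kb. RpS19b, RpS5b, RpS10a and RpL22-like are known in flies as copies enriched in the germline. RpL22, the copy used by most cells, was itself low at 23.9 ± 12.1 CPM per kb. RpL24-like and RpL7-like, whose counterparts in yeast act in building the 60S subunit, had 167 ± 49.7 and 113 ± 0.536 CPM per kb. RpL7 and RpL24 themselves had 2026 ± 779 and 373 ± 52.6 CPM per kb. RpS15Aa had 2768 ± 99.1 CPM per kb against 97.5 ± 15.8 for RpS15Ab, while RpL34a and RpL34b did not differ beyond their spread, with 306 ± 155 and 334 ± 153 CPM per kb. RpL10Ab, RpL37-1 and RpS28b, the copies in use here, had 2164 ± 228, 696 ± 175 and 1468 ± 84.0 CPM per kb. RpL37-2, with 2 counts in recBRM-K804R-V5 replicate 1 and 2 in Control replicate 2, and RpS28-like, with 0 counts in all libraries, did not pass the limit on low counts, which left 83 members for the tests. RpS14a had 500 ± 26.5 CPM per kb and RpS14b had 212 ± 130. RpS14a and RpS14b are near-identical neighbours, so their reads may have been split between them and both values are uncertain.

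The share of all counts that fell on the 85 genes was 8.56% and 11.0% in recBRM-V5 replicates 1 and 2, 11.7% and 9.05% in recBRM-K804R-V5 cells, 9.91% and 8.33% in BRM-depleted cells, and 10.8% and 12.7% in Control cells. The groups overlapped, and the replicates differed within every group. BRM-depleted cells were the only group whose libraries were both below both Control libraries. RpL5 alone took 1.01 to 1.81% of all counts.

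**Figure D1:**
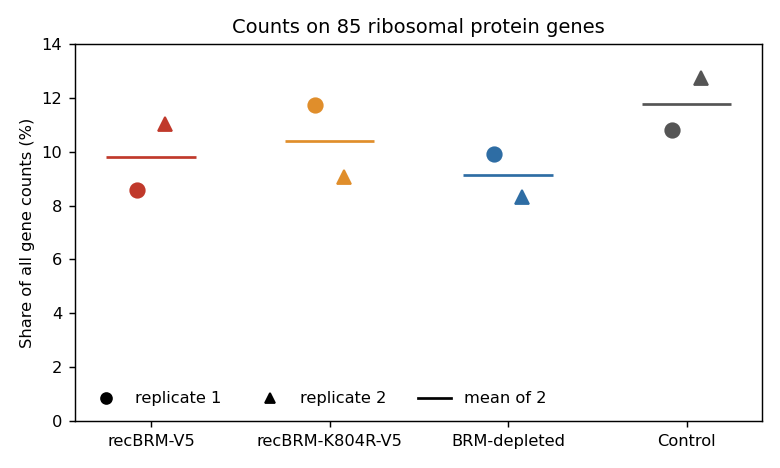
Share of all gene counts (%, y axis) on the 85 ribosomal protein genes, with circles for replicate 1, triangles for replicate 2 and a line at the mean of each group. The lowest library, at 8.33%, was BRM-depleted replicate 2 and the highest, at 12.7%, was Control replicate 2, and the replicates of each group stood well apart.

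Most members moved together from library to library, including between replicates of the same group. Over the 77 abundant members, 1 principal component of the log2 CPM held 91.5% of the variance across the 8 libraries. Its scores were -5.71 and 5.53 in recBRM-V5 cells, 5.15 and -0.78 in recBRM-K804R-V5 cells, -2.19 and -6.06 in BRM-depleted cells, and -1.69 and 5.73 in Control cells. recBRM-V5 replicate 1 and BRM-depleted replicate 2 thus lay at one end, and Control replicate 2, recBRM-V5 replicate 2 and recBRM-K804R-V5 replicate 1 at the other. Of the 77 members, 64 were lowest in recBRM-V5 replicate 1 or BRM-depleted replicate 2, and 63 were highest in Control replicate 2, recBRM-V5 replicate 2 or recBRM-K804R-V5 replicate 1.

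RpL8, a protein near the peptidyl transferase centre, varied most among the abundant members, by 7.21-fold between its highest and lowest library. It had 156.7 and 1042 CPM in recBRM-V5 cells, 955.1 and 367.9 in recBRM-K804R-V5 cells, 286.5 and 155.5 in BRM-depleted cells, and 273.5 and 1122 in Control cells. The replicates of Control and of recBRM-V5 cells spanned most of the range of the gene. RpS3, a protein of the mRNA entry site, was highest in the same 3 libraries, with 785.5 and 1991 CPM, 2143 and 1120 CPM, 1115 and 690.6 CPM, and 1044 and 2129 CPM in the same groups. RpS15Aa varied least, by 1.23-fold, with 2357 and 2212 CPM in recBRM-V5 cells, 2712 and 2695 in recBRM-K804R-V5 cells, 2621 and 2298 in BRM-depleted cells, and 2680 and 2547 in Control cells. The median member varied by 2.57-fold.

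A smaller set of members ran the other way. Against the mean of the single-copy members over the 8 libraries, 55 members had a Pearson r of at least 0.9 and 10 had an r below 0. That mean is made of most of the same members, and the share of other genes with such an r is not given. RpS3A had an r of -0.80, RpL15 of -0.73 and RpL5 of -0.72, and the others were RpL21, RpL38, RpL41, RpL10, RpL39, RpS29 and RpS27A. RpL5, which binds 5S ribosomal RNA, had 18883 and 10523 CPM in recBRM-V5 cells, 11479 and 11079 in recBRM-K804R-V5 cells, 13752 and 13430 in BRM-depleted cells, and 15438 and 11023 in Control cells. It was thus highest in recBRM-V5 replicate 1, the library in which RpS6 was lowest. The correlations describe 8 libraries that share groups, and most of the members share high expression and a GC-rich coding sequence.

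**Figure D2:**
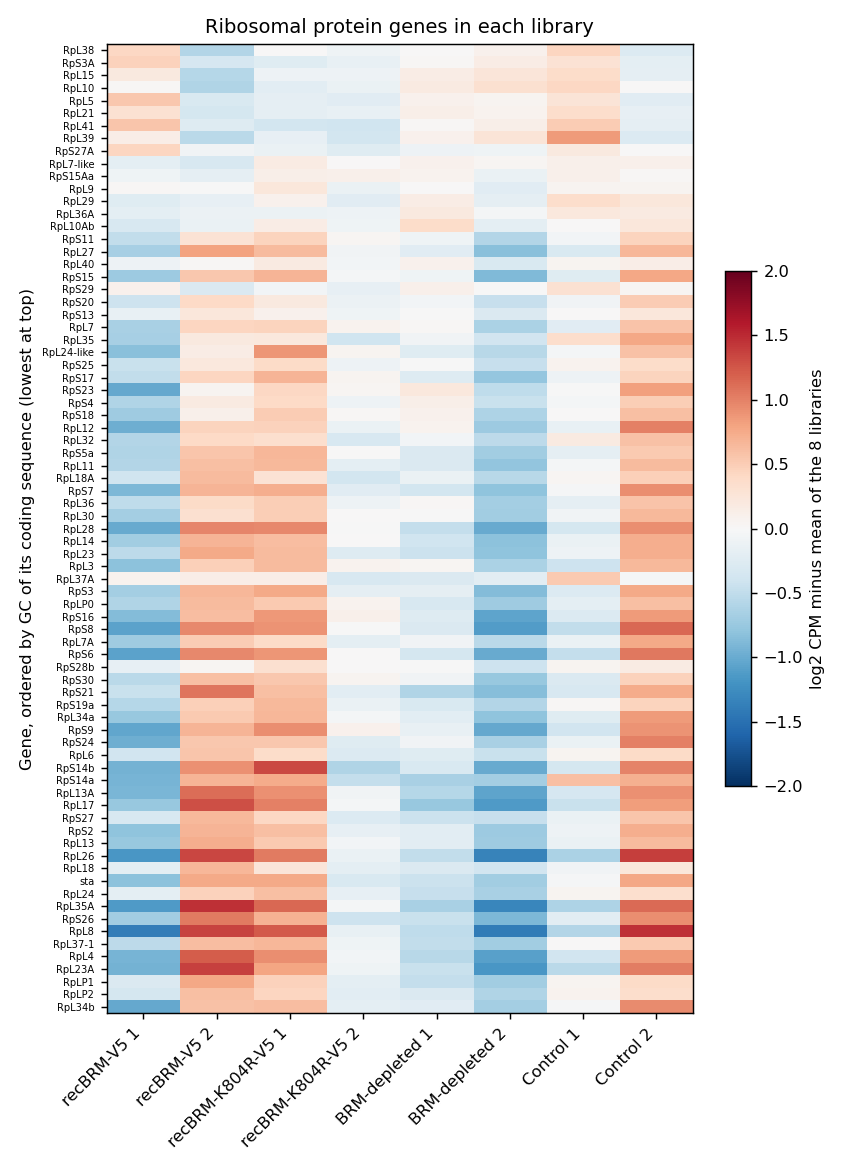
Heat map of log2 CPM minus the mean of the 8 libraries (colour) for each abundant ribosomal protein gene (rows, ordered by GC content of the coding sequence, lowest at the top) in each library (columns). In most libraries the GC-rich genes at the bottom form blocks mainly of 1 sign, with a median of -0.78 in recBRM-V5 replicate 1 and 0.81 in Control replicate 2. Signs were mixed in Control replicate 1, where RpS14a stood at 0.599 and RpL26 at -0.628.

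The differences between replicates went with the GC content of the coding sequence and, among the members, less strongly with their level. Replicate 2 was higher than replicate 1 for 69 of 83 tested members in recBRM-V5 cells (median log2 difference 1.06) and for 68 of 83 in Control cells (0.67), but for only 7 in recBRM-K804R-V5 cells (-0.63) and 10 in BRM-depleted cells (-0.40). Over the 77 abundant members, the difference correlated with GC content with an r of 0.82 in recBRM-V5, -0.73 in recBRM-K804R-V5, -0.54 in BRM-depleted and 0.71 in Control cells. The 1950 other genes at 100 CPM or more had r of 0.62, -0.39, -0.51 and 0.66, so the pattern was not limited to ribosomal protein genes. Over the 77 members the r with log2 mean CPM was -0.56, 0.66, 0.21 and -0.46 in the same order of groups. For the 1950 other genes it was -0.08, -0.01, 0.03 and -0.04. By rank, the correlation of the members with GC content in BRM-depleted cells was -0.33 (Spearman). The part of GC content in the results was not tested beyond a fit with its trend removed, described with the comparisons. That of the level was not tested.

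**Figure D3:**
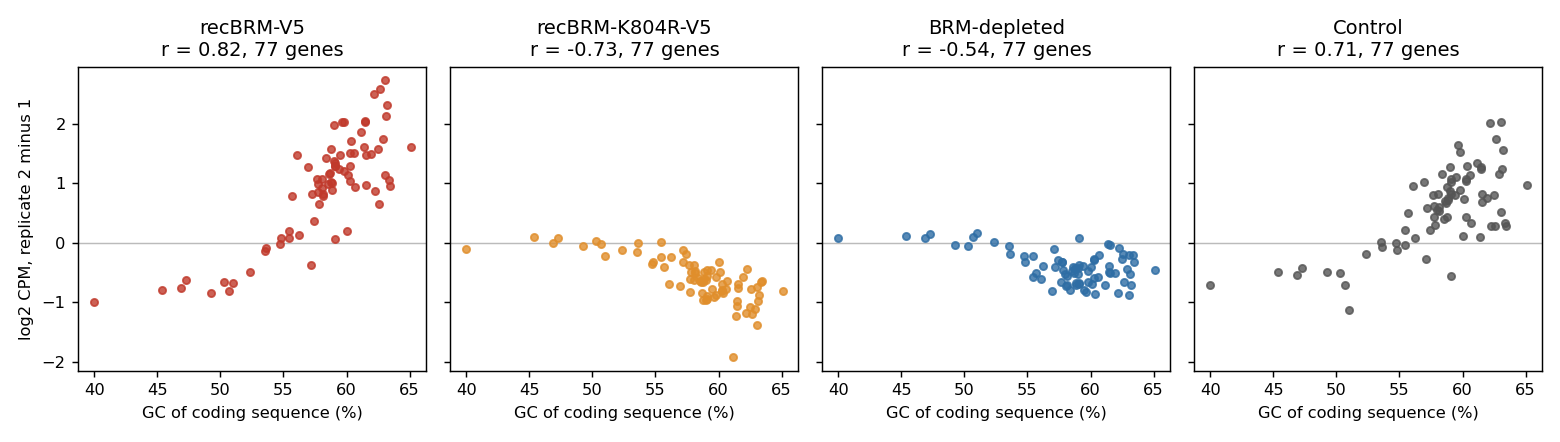
Log2 CPM of replicate 2 minus replicate 1 (y axis) against GC content of the coding sequence (%, x axis) for the 77 abundant members, with 1 panel per group and 1 point per gene. The slope was positive in recBRM-V5 (r = 0.82) and Control cells (0.71) and negative in recBRM-K804R-V5 (-0.73) and BRM-depleted cells (-0.54).

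The 26 members with the most GC, 60.2 to 65.1%, had median deviations from the 8-library mean of -0.78 and 0.70 in recBRM-V5 cells, 0.66 and -0.16 in recBRM-K804R-V5 cells, -0.44 and -0.72 in BRM-depleted cells, and -0.13 and 0.81 in Control cells. The 25 members with the least GC, at most 57.8%, had medians between -0.13 and 0.20 in the 8 libraries, with single members moving in opposite directions. RpL24-like, for example, deviated by -0.837 in recBRM-V5 replicate 1 and RpL39 by 0.859 in Control replicate 1. Of a member's variation over the libraries, a median of 65.9% lay within groups, against 30.9% for the other 1950 genes. The median standard error of a log2 fold change was 0.40 for the abundant members, against 0.18 for other genes at that level, which sets how large a change of a single member had to be before it could pass the test.

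The pattern of the members was shared most closely by Nacalpha, a subunit of the nascent polypeptide-associated complex that binds new chains at the ribosome exit. Its r with the mean of the 63 single-copy members was 0.994 over the 8 libraries, the highest of 6257 genes compared. Nacalpha had 175.4 and 423.5 CPM in recBRM-V5 cells, 420.8 and 246.7 in recBRM-K804R-V5 cells, 227.5 and 178.1 in BRM-depleted cells, and 281.9 and 437.5 in Control cells. The next were Top3beta (0.994), ND-B14.7 (0.993), the ER chaperone gene Calr (0.993), ssh (0.989), bic, which encodes the partner of Nacalpha (0.987), and gbb (0.986).

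Depletion of BRM was compared with Control cells to ask which genes need BRM. In BRM-depleted cells edgeR called 0 of 83 tested members and 0% of all 8165 genes, with adjusted p under 0.05 as the limit here and throughout, and DESeq2 called 0 members and 0.245% of all genes. The depleted gene brm itself was not called (log2 fold change -1.32, SE 0.26, edgeR adjusted p = 0.468), so the lack of calls does not show that the members were unchanged. Without adjustment, p was under 0.05 for 5 members, all lower, and for 4.63% of all genes. The median log2 fold change was -0.69 over the members, with 79 of 83 negative, and -0.01 over all genes. The BRM-depleted libraries were both lower than either Control library for 45 members, a pattern shown by 22.1% of all genes. The median over the members was about the size of the SD between replicates, 0.691. Here and below, that SD is for a difference between single libraries, and a difference between means of 2 libraries has a smaller spread. The median was -0.29 without Control replicate 2, -0.51 without BRM-depleted replicate 2, -0.92 without BRM-depleted replicate 1 and -0.96 without Control replicate 1. With the GC trend removed in each library the median was -0.39.

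The 40S protein gene RpS14a came nearest to a call, with 177.1 and 174.0 CPM in BRM-depleted cells against 421.9 and 454.7 CPM in Control cells. Its log2 fold change was -1.32 with an SE of 0.52 (edgeR unadjusted p = 0.0346, adjusted p = 0.868), and its neighbour RpS14b had 73.79 and 45.25 CPM against 71.46 and 181.4 CPM. The recBRM-V5 replicates of RpS14a, at 146.7 and 447.5 CPM, spanned most of the range of both groups. RpL24, of the large subunit, had 298.5 and 263.0 CPM in BRM-depleted cells against 425.1 and 519.2 CPM in Control cells (-0.75, SE 0.30, edgeR adjusted p = 0.868). RpL35 had 1366 and 1094 CPM against 1820 and 2454 CPM, without overlap (-0.80, edgeR adjusted p = 0.868). RpS14a was called in a fit of the 4 libraries of these groups alone (edgeR adjusted p = 0.00645) and in a fit without the limit on low counts (0.00803).

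The recombinant lines were compared with Control cells to ask what wild-type and inactive BRM do in place of the endogenous protein. In recBRM-V5 cells 1 of 83 members changed, RpS19b, against 18.2% of all genes. In recBRM-K804R-V5 cells 1 of 83 was called, RpL22-like, against 10.5% of all genes. This gene passed the limit on low counts only through the recBRM-K804R-V5 libraries. The members' median log2 fold change was -0.21 in recBRM-V5 cells, where 69 of 83 were negative, and -0.05 in recBRM-K804R-V5 cells, where 53 were negative. Both are below the SD of these medians between replicates, 1.07 and 0.785, and the median for recBRM-V5 cells was -0.86 without recBRM-V5 replicate 2 and 0.16 without recBRM-V5 replicate 1, and -0.47 and 0.10 without Control replicates 1 and 2. That for recBRM-K804R-V5 cells was -0.38 and 0.22 without recBRM-K804R-V5 replicates 1 and 2, and -0.32 and 0.29 without Control replicates 1 and 2. The medians over all genes were 0.00 and 0.01.

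Among the abundant members, those with small replicate differences came closest. RpL7-like had 165.4 and 150.3 CPM in recBRM-V5 cells against 201.5 and 202.9 CPM in Control cells, without overlap. Its log2 fold change was -0.36 with an SE of 0.13 (edgeR adjusted p = 0.106), and it was -0.35 and called once the GC trend was removed (adjusted p = 0.044). RpL29, of the large subunit, had 780.9 and 827.4 CPM against 1179 and 1081 CPM (-0.49, SE 0.20, edgeR adjusted p = 0.132). RpL35 was also called after removal of the GC trend, at -0.74 on the log2 scale in recBRM-V5 cells (edgeR adjusted p = 0.0307) and likewise at -0.74 in recBRM-K804R-V5 cells (0.0411), each against Control. In that fit RpL10 stood at -0.51 in recBRM-V5 cells (edgeR adjusted p = 0.0348). The unadjusted levels of RpL35 were 902.7 and 1631 CPM in recBRM-V5 cells, 1648 and 1084 in recBRM-K804R-V5 cells, and 1820 and 2454 in Control cells. In fits without recBRM-V5 replicate 2 the calls against Control were RpL35, RpS14a, RpS15Ab and RpS23, all lower, with 16.1% of all genes called, and RpS19b was no longer called.

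Expression of wild-type or inactive BRM in depleted cells was compared with depletion alone. In recBRM-V5 cells 1 of 83 members was called against BRM-depleted cells, again RpS19b, against 19.5% of all genes. In recBRM-K804R-V5 cells 3 were called, RpS19b, RpS10a and RpL22-like, against 11.7% of all genes. RpS10a and RpL22-like passed the limit on low counts only through the recBRM-K804R-V5 libraries. The members' medians were 0.47 in recBRM-V5 cells and 0.69 in recBRM-K804R-V5 cells, with 66 and 70 of 83 positive, and both all-gene medians were 0.05. The SD between replicates was 0.977 and 0.646, and the removal of the GC trend brought the medians to 0.16 and 0.23. The median of recBRM-V5 cells was -0.19 without recBRM-V5 replicate 2, and that of recBRM-K804R-V5 cells was 0.26 without recBRM-K804R-V5 replicate 1. In recBRM-K804R-V5 cells 50 members lay above both BRM-depleted libraries in both replicates, while 37.1% of all genes did so.

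These counts depended on the libraries and on the fit. Without recBRM-V5 replicate 1, the library with the lowest level of many members, 26 of 83 members were called between recBRM-V5 and BRM-depleted cells, 25 of them higher, against 31.4% of all genes. Without a limit on low counts, 33 of 84 members were called higher in recBRM-K804R-V5 than in BRM-depleted cells, against 14.4% of all genes called in either direction. In a fit of those 4 libraries alone 18 of 82 were called higher, against 24.5% of all genes. RpLP1, a stalk protein, had 840.1 and 1750 CPM in recBRM-V5 cells against 735.5 and 637.2 CPM in BRM-depleted cells (0.92, SE 0.36, edgeR adjusted p = 0.118), and DESeq2 called it (0.049).

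The recombinant lines were compared directly to ask whether the ATPase activity matters. Of the 83 members, 2 were called, RpL22-like and RpS10a, both lower in recBRM-V5 cells, against 4.74% of all genes. Both passed the limit on low counts only through the recBRM-K804R-V5 libraries, so these calls cannot answer that question. The lines also differed in brm RNA, with 16635 and 24893 CPM in recBRM-V5 cells against 2118 and 2005 in recBRM-K804R-V5 cells. The members' median was -0.15, against an all-gene median of 0.00 and an SD between replicates of 1.04. It was 0.22 and -0.86 without recBRM-V5 replicates 1 and 2, and 0.21 and -0.42 without recBRM-K804R-V5 replicates 1 and 2. No abundant member was called.

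The called members were gene copies with low levels in S2 cells, and for RpL22-like and RpS10a the limit on low counts selected for a difference. RpL22-like had 1 and 0 counts in recBRM-V5 cells, 26 and 25 in recBRM-K804R-V5 cells, 0 and 1 in BRM-depleted cells, and 2 and 1 in Control cells, or 0.119 and 0, 2.60 and 3.79, 0 and 0.140, and 0.211 and 0.122 CPM. The recBRM-K804R-V5 libraries stood apart from the other 6. As a ratio of summed counts scaled by library size, recBRM-K804R-V5 cells had 47.4 times the level of recBRM-V5 cells (95% exact interval 8.13 to 1908), 42.8 times that of BRM-depleted cells (7.35 to 1724) and 18.1 times that of Control cells (5.85 to 90.7), with intervals that cover counting error only. The edgeR log2 fold changes were 4.10 against Control (SE 0.70, adjusted p = 0.00969), 5.18 against BRM-depleted cells (SE 0.85, adjusted p = 0.00847), and -5.30 for recBRM-V5 against recBRM-K804R-V5 cells (SE 0.84, adjusted p = 0.0131). The gene passed the limit on low counts only through the recBRM-K804R-V5 libraries, so that it could be tested only if these were high. Neither its p-values nor the ratios and intervals above are independent support for the difference. The call against Control was lost without recBRM-K804R-V5 replicate 2 (3.82, adjusted p = 0.0565), Control replicate 1 (4.52, 0.0866) or Control replicate 2 (3.77, 0.0921). The call against BRM-depleted cells was lost without BRM-depleted replicate 1 (4.35, 0.091) or 2 (7.68, 0.066), and that between the recombinant lines without recBRM-K804R-V5 replicate 2 (-5.04, 0.0572).

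RpS10a had 2 and 3 counts in recBRM-V5 cells, 39 and 11 in recBRM-K804R-V5 cells, 3 and 4 in BRM-depleted cells, and 6 and 10 in Control cells. In CPM these were 0.238 and 0.427, 3.90 and 1.67, 0.441 and 0.560, and 0.633 and 1.22. The recBRM-K804R-V5 libraries were the highest, but recBRM-K804R-V5 replicate 2 was close to Control replicate 2. The log2 fold change was 2.47 for recBRM-K804R-V5 against BRM-depleted cells (SE 0.64, edgeR adjusted p = 0.0438), -3.08 for recBRM-V5 against recBRM-K804R-V5 cells (edgeR adjusted p = 0.0432) and 1.63 for recBRM-K804R-V5 against Control cells (SE 0.56, adjusted p = 0.109, not called). This gene too passed the limit on low counts only through the recBRM-K804R-V5 libraries, with the same consequence for its p-values. Of 19 alternatives, 8 ended its call against BRM-depleted cells and 10 ended that between the recombinant lines. Without recBRM-K804R-V5 replicate 1 the values were 1.70 (adjusted p = 0.253) and -2.30 (0.253).

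RpS19b was higher in both recombinant lines than in BRM-depleted cells. It had 7.50 and 19.2 CPM in recBRM-V5 cells, 9.69 and 9.54 in recBRM-K804R-V5 cells, 2.35 and 1.96 in BRM-depleted cells, and 4.86 and 4.87 in Control cells, and no other group overlapped the BRM-depleted values. Its log2 fold change was 2.61 for recBRM-V5 against BRM-depleted cells (SE 0.47, edgeR adjusted p = 0.00838) and 2.15 for recBRM-K804R-V5 against BRM-depleted cells (SE 0.47, edgeR adjusted p = 0.026). Against Control it was 1.45 in recBRM-V5 cells (SE 0.42, edgeR adjusted p = 0.0492), 0.98 for recBRM-K804R-V5 (adjusted p = 0.196) and -1.17 in BRM-depleted cells (adjusted p = 0.868). The call of recBRM-V5 against Control cells was lost under 13 of 19 alternatives, with adjusted p between 0.00264 and 0.212, and the value was 0.62 without recBRM-V5 replicate 2 (adjusted p = 0.212). The calls against BRM-depleted cells were lost without either BRM-depleted library, with 2.48 to 2.74 in recBRM-V5 cells (adjusted p = 0.0664 and 0.0801) and 2.02 to 2.28 in recBRM-K804R-V5 cells (0.138 and 0.196), and that of recBRM-K804R-V5 cells also without either of their own libraries (0.0991 and 0.079). RpS5b, another germline copy, had 1 and 13 counts in recBRM-V5 cells, 42 and 8 in recBRM-K804R-V5 cells, 6 and 6 in BRM-depleted cells, and 11 and 34 in Control cells, and was not called in any of the 6 comparisons.

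The 5 germline markers found in the table did not, in sum, go the same way. None was below 1 CPM in all libraries, and their sums were 93.6 to 102 CPM in recBRM-V5 cells, 74.2 to 84.4 in recBRM-K804R-V5 cells, 186 to 211 in BRM-depleted cells, and 187 to 210 in Control cells, lower in both recombinant lines. Of the ovarian somatic markers, tj was below 1 CPM in all libraries. Their sums were 468.6 to 479.1 CPM in recBRM-V5 cells and 303.5 to 316.6 in recBRM-K804R-V5 cells. They were 141.6 to 180.7 CPM in BRM-depleted and 197.8 to 212.0 in Control cells, so the recombinant lines had the highest sums. A sum follows its most abundant markers and does not give the direction of each. Of the ovarian somatic markers chosen, the paper lists fax as increased and br as decreased with recombinant BRM. The part of either marker set in the values of RpS19b, RpS10a and RpL22-like was not tested.

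**Figure D4:**
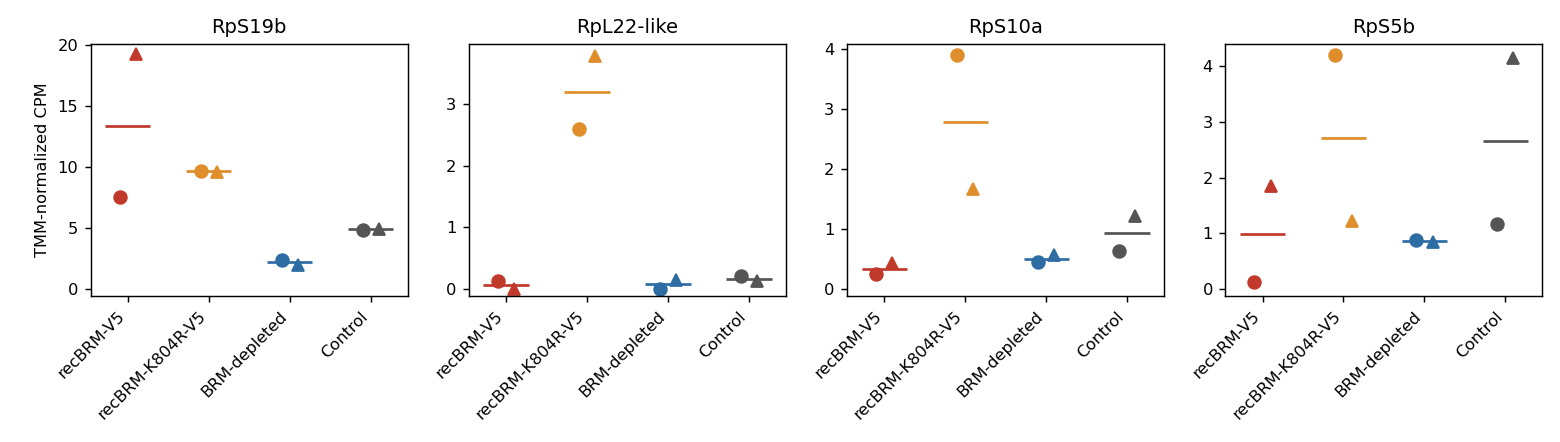
TMM-normalized CPM (y axis, from 0) of the low gene copies in the 4 groups (x axis), with circles for replicate 1, triangles for replicate 2 and a line at the group mean. RpL22-like reached 2.60 and 3.79 CPM in recBRM-K804R-V5 cells and at most 0.211 CPM elsewhere, and RpS19b was lowest in BRM-depleted cells at 2.35 and 1.96 CPM.

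Genes that build the ribosome or work with it were counted in lists chosen with the members. Of 33 translation factors, edgeR called 1 higher and 1 lower in recBRM-V5 against Control cells, where 18.2% of all genes were called, and 0 in recBRM-K804R-V5 or BRM-depleted against Control cells. The higher one was eEF1alpha2, an elongation factor copy, with 6.312 and 15.07 CPM in recBRM-V5 cells against 1.794 and 2.193 CPM in Control cells (2.41, edgeR adjusted p = 0.0102). The lower one was eIF3l, a subunit of initiation factor 3, with 376.6 and 347.4 CPM against 573.3 and 527.6 CPM (-0.605, SE 0.169, edgeR adjusted p = 0.0431). Median log2 fold changes of the list lay between -0.18 and 0.18 over the 6 comparisons.

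Of 28 ribosome biogenesis genes, 3 were lower than Control in the recBRM-V5 line and 1 in the recBRM-K804R-V5 line, with none higher, against 18.2% and 10.5% of all genes called. Gar1, a protein of the particles that modify uridines in ribosomal RNA, was lower in both lines. It had 73.6 and 57.45 CPM in recBRM-V5 cells, 56.16 and 60.43 in recBRM-K804R-V5 cells, 109.4 and 119.1 in BRM-depleted cells, and 147.0 and 103.8 in Control cells. Its log2 fold changes against Control were -0.94 in recBRM-V5 cells (SE 0.20, edgeR adjusted p = 0.0165) and -1.11 for recBRM-K804R-V5 (SE 0.20, adjusted p = 0.0125). The others lower in recBRM-V5 cells were nop5, of the particles that methylate ribosomal RNA (-0.80), and CG3071 (-0.77). Of 9 genes of RNA polymerase I, which makes the large ribosomal RNAs, 1 was called in 1 comparison, Polr1A, lower in recBRM-K804R-V5 than in BRM-depleted cells (-0.78, edgeR adjusted p = 0.0447).

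Of 23 growth regulators, 2 were higher and 2 lower in recBRM-V5 against Control cells, a share near the 18.2% of all genes. Xrp1, a transcription factor that flies induce when a ribosomal protein gene is mutant, had 1143 and 1669 CPM in recBRM-V5 cells, 1197 and 1339 in recBRM-K804R-V5 cells, 770.8 and 768.8 in BRM-depleted cells, and 692.5 and 731.2 in Control cells. Xrp1 was thus higher than in Control cells, by 0.98 on the log2 scale for recBRM-V5 (edgeR adjusted p = 0.0184) and by 0.83 for recBRM-K804R-V5 (0.0472). Irbp18, its partner, was higher in recBRM-V5 cells (1.00, edgeR adjusted p = 0.0352), while REPTOR, a factor of the TOR pathway (-0.66), and BEAF-32, an insulator protein (-0.79), were lower. Myc, a driver of ribosome production, had 356.4 and 286.1 CPM in recBRM-V5 cells and 233.8 and 336.2 in recBRM-K804R-V5 cells against 508.4 and 609.2 CPM in BRM-depleted cells (-0.80 and -0.97, edgeR adjusted p = 0.0358 and 0.0271). Control cells had 425.5 and 415.9 CPM of Myc.

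BRM binding was asked of the same genes. The BRM signal, averaged by the authors over each gene and its flanks, was not higher in the IP than in the Input on the members as a set. The median log2 IP/Input of the 87 members was -0.02 in replicate 1 and -0.40 in replicate 2, against -0.09 and -0.09 for 13557 genes. For 93 other abundant genes shorter than 1500 bp, the size of most members, the medians were -0.03 and -0.39. A limma fit of IP against Input called 0 of 87 members and 0% of all genes, and at an unadjusted p under 0.05 it gave 0 members and 0.0664% of all genes.

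At a limit of 1.1 on the IP/Input, applied here to the mean of the ratios of both replicates, 6 of 87 members or 6.90% passed, against 15.6% of all genes. These were RpS10a (0.793 in replicate 1 and 2.34 in replicate 2), RpS28a (1.18 and 1.36), RpL37-2 (0.732 and 1.61), RpL22-like (0.843 and 1.48), RpS5b (1.06 and 1.20) and RpS6 (1.21 and 1.05). RpS6 was the only 1 of the 77 abundant members among them. In both replicates the limit was reached by 1 member, RpS28a, against 1.37% of all genes, and in replicates 1 and 2 alone by 13 and 7 members, against 15.9% and 25.8% of all genes.

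The ChIP replicates did not order the members alike. Replicate 2 was lower than replicate 1 for 70 of 87 members, or 80.5%, against 52.3% of all genes, and the ratios of the replicates had an r of -0.42 over the 87 members and -0.28 over all genes. RpL38 had an IP/Input of 1.27 in replicate 1 and 0.226 in replicate 2, RpL39 had 1.07 and 0.338, RpL21 had 0.845 and 0.498, and RpS15Ab had 1.103 and 0.418, the 4 lowest members by mean log2 ratio. Over the 77 abundant members the ratio of replicate 2 was higher at higher GC content of the coding sequence, with an r of 0.63, while that of replicate 1 had an r of -0.28. The low mean ratios of RpL38, RpL39 and RpS15Ab thus rest on replicate 2, while RpL21 was below 1 in both replicates.

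**Figure D5:**
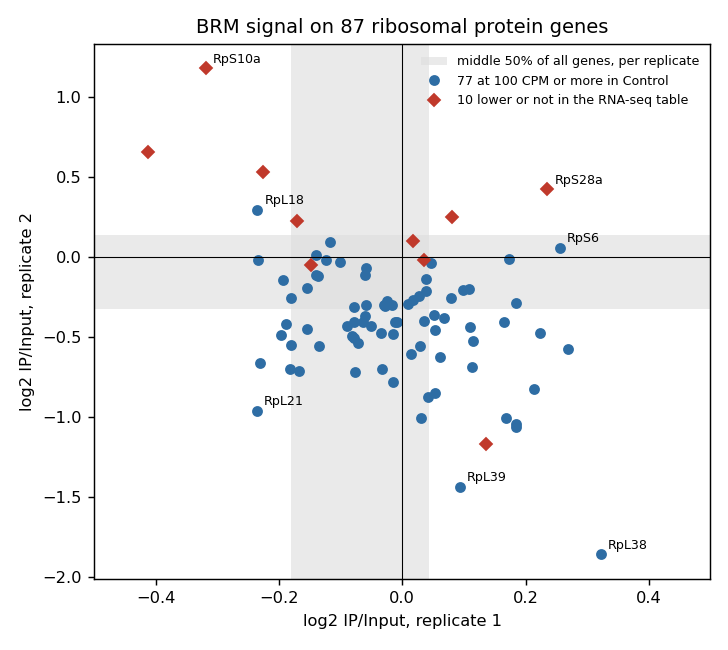
Log2 IP/Input of BRM in replicate 1 (x axis) and replicate 2 (y axis) for the 87 ribosomal protein genes, with 1 point per gene and abundant and low genes in separate colours. Most points lie below 0 in replicate 2 and on either side of 0 in replicate 1, with medians of -0.40 and -0.02.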

How the data were processed

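RNA was measured in 8 poly(A) libraries and BRM binding in 4 ChIP-seq libraries. The authors mapped the strand-specific paired RNA-seq reads with TopHat2 and counted them per gene with HTSeq, and the deposited counts are not normalized. For ChIP-seq the authors aligned reads with Bowtie and averaged the coverage signal per gene with ngs.plot, over the gene and flanks of 200 bp, and the scaling of this signal is not given in the sources used here. The methods name the BDGP6 assembly and the labels list dm3. The files hold gene identifiers and no coordinates, so every position printed here is from the Release 6 annotation. Identifiers were matched to symbols for 95.7% of the RNA-seq table and 96.1% of the ChIP-seq table.

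The members and the gene lists were chosen with earlier results of these data known. Named with values were called members (up to 8 a direction) or the 3 smallest p-values, paralogs, the 4 highest and lowest per kb and by IP/Input, members with a special role, untested members and the 10 genes most like them, of which the closest are shown. RpL8, RpS3, RpL35, RpL10, RpS23, called genes of the context lists and the sequences shown were chosen after their values were seen. Counts were fitted for all genes with edgeR 4.0.16 in R 4.3.3 (quasi-likelihood test in a joint fit of the 8 libraries, TMM, filterByExpr with 10 counts). Genes were called at p-values under 0.05 after Benjamini-Hochberg adjustment over all 8165 genes. In the joint fit, p-values set a change against the spread between 2 biological replicates, pooled over the 4 groups and moderated across genes. They do not use the spread of the compared groups alone. CPM per kb used the union of annotated exons. ChIP signal was tested with limma 3.58.1 on log2(signal + 0.1) where the Input signal reached 0.5 in both replicates. Without read numbers the depth of this signal is unknown, and no counting error is given. Alternatives were other scalings, limits on low counts, tools (DESeq2 1.42.0, limma-voom), thresholds, fits of 4 libraries, leaving out single libraries, and a replicate block. The removal of a lowess trend on coding GC content from each library (span 0.3, genes with at least 10 CPM) and CPM per kb of coding sequence were added after seeing the data. GC content was known for 93.2% of tested genes. The count and signal fits were tested on simulated data. Python 3.11.15 with pandas 2.3.3, scipy 1.17.1 and matplotlib 3.10.9 was used for summaries and figures.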

Additional observations from a re-analysis of the deposited data

Results flagged for a closer look

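The direct edgeR comparison of recBRM-V5 with recBRM-K804R-V5 cells, which tests whether the effects against Control differ, called RpL22-like and RpS10a. Both genes could be tested only because the recBRM-K804R-V5 libraries were high, so the p-values are no independent support. RpL22-like had a log2 difference of -5.30 (adjusted p = 0.0131), from 1 and 0 counts in recBRM-V5 cells against 26 and 25 in recBRM-K804R-V5 cells. RpS10a had a log2 difference of -3.08 (edgeR adjusted p = 0.0432), from 2 and 3 counts in recBRM-V5 cells against 39 and 11 in recBRM-K804R-V5 cells. The RpL22-like call was lost without recBRM-K804R-V5 replicate 2 (-5.04, adjusted p = 0.0572), and 10 of 19 alternatives ended that of RpS10a. Both recombinant lines are stable lines whose brm RNA differed in level, and line, BRM level and mutation cannot be told apart.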

How the results depend on the processing

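With 2 replicates a group and members that varied more between replicates than other genes, small changes of abundant members were beyond the reach of these libraries, and low copies rested on few counts. The number of members called between recBRM-V5 and Control cells, 1, became 0 with library size alone, with TMM computed without the members, with limma-voom, with only the 4 libraries compared, with a replicate block, with edgeR's robust option and at an adjusted p under 0.01. It became 3 without a limit on low counts (15.5% of all genes), 3 at an unadjusted p under 0.05 and 4 with the GC trend removed (27.0%). For recBRM-K804R-V5 against Control cells the 1 call became 2 with the GC trend removed (17.0% of all genes) and 3 at an unadjusted p. For BRM-depleted against Control cells the 0 calls became 3 without a limit on low counts (RpL26, RpL8 and RpS14a, all lower, with 0.539% of all genes), 1 with only the 4 libraries compared (0.571%) and 5 at an unadjusted p. For recBRM-V5 against BRM-depleted cells the 1 call became 3 with DESeq2 (22.3% of all genes), 15 without a limit on low counts (17.9%) and 5 at an unadjusted p. For recBRM-K804R-V5 against BRM-depleted cells the 3 calls became 1 with limma-voom (11.0% of all genes), 33 without a limit on low counts (14.4%), 18 with only the 4 libraries compared (24.5%), 1 at an adjusted p under 0.01 and 7 at an unadjusted p. Between the recombinant lines the 2 calls became 1 with limma-voom (4.69% of all genes), with only the 4 libraries compared (1.32%) and with a replicate block (3.42%). They became 3 without a limit on low counts (5.86%) or at an unadjusted p, and 0 at an adjusted p under 0.01. Leaving out 1 library gave 0 to 4 calls for recBRM-V5 and 0 to 2 for recBRM-K804R-V5 against Control cells, 0 to 26 and 0 to 6 against BRM-depleted cells, 1 between the recombinant lines, and 0 for BRM-depleted against Control cells. Wherever the number of called members changed, the share of all genes called also changed with the library left out. The member counts alone thus do not show that calls of members were less stable than those of other genes. At an unadjusted p under 0.05 the share of all genes was 4.63% for BRM-depleted against Control cells. It is not given for the other comparisons, nor is the share at an adjusted p under 0.01. The cause of these changes in calls was not tested. Fits with fewer libraries have fewer degrees of freedom, and the part of this was not tested either.

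Medians over the members moved by less than their SD between replicates under all alternatives tried. That SD comes from the same replicates, so leaving out 1 library could hardly exceed it, and this does not show that the medians were stable. Leaving out 1 library gave -0.86 to 0.16 for recBRM-V5 and -0.38 to 0.29 for recBRM-K804R-V5 against Control cells. Against BRM-depleted cells it gave -0.19 to 0.92 and 0.26 to 0.91. It gave -0.86 to 0.22 between the recombinant lines and -0.96 to -0.29 for BRM-depleted against Control cells. Differences between replicates 1 and 2 correlated over all genes with r of 0.626 between recBRM-V5 and Control cells and 0.235 between recBRM-K804R-V5 and BRM-depleted cells, and with r of -0.32 to -0.27 for the other 4 pairs of groups. Over the 77 abundant members the r were 0.95 and 0.558, and -0.877 to -0.749 for the other 4 pairs. Since the sign differed between pairs of groups, the numbers were not taken as a pairing, and the replicate block changed calls only as given above and for RpS10a and RpS19b. Without the 10 most abundant genes the share of counts was 6.81% and 10.6% in recBRM-V5 cells and 11.0% and 8.07% in recBRM-K804R-V5 cells. It was 8.66% and 6.93% in BRM-depleted cells and 9.34% and 12.0% in Control cells. Of these 10 genes 2 are members, whose counts left the share as well, so these shares cover fewer members. The median level per kb in Control cells was 2306 CPM with coding length. The order of the members changed with it, as RpL21 moved from rank 2 to rank 8. Of the ChIP-seq results, the members with an IP/Input of at least 1.1 became 1 when both replicates were required, 12 at a limit of 1.0, and 7 to 13 with 1 replicate left out, where limma has no test. The limma fit gave 0 called members under all 6 other settings, and the median log2 IP/Input lay between -0.18 and -0.09.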

Other observations

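Input signals were lower on the X chromosome for the members as for all genes. The 14 members on the X chromosome had median Input signals of 1.69 and 1.43 in replicates 1 and 2, against 3.13 and 2.63 for the 73 members on other chromosomes. Over all genes the medians were 1.501 and 1.28 for 1997 genes on the X chromosome, against 2.52 and 2.25 for 11047 genes on the autosomes.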
